A study of Mus musculus with 10 samples.

Results

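The genes described here were 45 that encode enzymes and membrane proteins of the lysosome, among 19939 genes measured in the mouse hippocampus. They were taken from a list of lysosome genes by function, a list drawn up when earlier results of these data were known, and all 45 had a probe set annotated to a single gene. By function they comprised 12 proteases, 12 glycosidases, 6 sulfatases, 8 lipid enzymes and lipid-binding activators, and 7 membrane proteins. Total RNA of the whole hippocampus was hybridised to an Affymetrix Mouse Gene ST array, 1 array for each of 5 Dp3Yah mice and 5 control littermates. All were males of 16 weeks, and the labels place both groups on a C57BL/6N background, while the methods of the study describe backcrossing towards C57BL/6J. Dp3Yah mice carry 3 copies, against 2 in the controls, of an interval of mouse chromosome 16 that starts at Hspa13 and ends in the App region and corresponds to a segment of human chromosome 21. The duplication is carried in every cell of the body and comes as a single line. None of the 45 genes lies on chromosome 16, so none was itself in 3 copies.

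The lysosome is the acidic compartment in which cells break down proteins, complex sugars and lipids that arrive by endocytosis and autophagy. Soluble hydrolases do the cutting, heavily glycosylated membrane proteins line the compartment, and a proton pump keeps it acidic. In the brain, inherited loss of many of these enzymes causes storage disorders with neurodegeneration, and microglia are particularly rich in several cathepsins.

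The values are log2 RMA values, so a difference of 0.26 is 1.2-fold and a difference of 0.1 is 1.07-fold. The median of an array lay between 6.32 and 6.41 over all genes. Of all 19939 genes, 3 passed limma at an adjusted p under 0.05, which was 0.015% of the genes tested. They were Hspa13, Mrpl39 and Ncam2, all in the duplicated interval. For each of them the 5 Dp3Yah mice exceeded all controls, which checked the labels. Only 1 gene passed when Dp3Yah replicate 4 or control replicate 3, 4 or 5 was left out. The 12 hippocampal neuron markers were all above the median level of all genes.

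Some arrays stood apart. Control replicate 3 gave the lowest value of the 10 arrays for 18 of the 45 lysosomal genes and the highest for none. Markers of the choroid plexus, a secretory epithelium that borders the hippocampus, divided the arrays. Their mean log2 value was 7.18 to 7.91 in Dp3Yah replicates 1, 2 and 5 and control replicates 1 and 5, and 5.97 to 6.21 in the other 5 arrays. The number of the 45 genes higher, and the medians of the 45 and of their groups by function, are therefore also given in other ways. These leave out control replicate 3 or put the choroid class of each array in the fit, the second added after the values were seen. Other counts below are for all 10 arrays unless stated.

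Most of the lysosomal genes were slightly higher in Dp3Yah mice, and none passed the test. The mean was higher in Dp3Yah mice for 37 of 45 genes (82.2%), against 46.8% of all genes and 53.1% of genes above the median level of all genes. The median log2 change was 0.042 for the 45 genes, against -0.005 for all genes and 0.005 for genes above the median level. Without control replicate 3, 27 of the 45 were higher and the median was 0.017, while 44.1% of all genes were higher. The median was 0.024 without Dp3Yah replicate 1. With the choroid class in the fit, 31 of the 45 were higher and the median was 0.024. Of the 22 genes with a change of at least 0.05 in size, 7 had one smaller by over 1.5 times without control replicate 3. Within the choroid-rich arrays alone (3 Dp3Yah, 2 control), 26 of 45 were higher with a median of 0.009, beside 39.4% and -0.022 over all genes. Within the choroid-poor arrays (2 Dp3Yah, 3 control, including control replicate 3), 37 of 45 were higher with a median of 0.051, beside 57.4% and 0.014 over all genes. In tissue RNA of this kind, fewer cells of a type and less RNA per cell cannot be told apart.

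The lowest limma adjusted p of a lysosomal gene was 0.922. At an unadjusted limma p under 0.05, 3 of the 45 genes were higher, Galns, Asah1 and Lgmn, beside 2.49% of all genes, and 0 were lower, beside 2.59% of all genes. Of the 45 genes, 38 lay above the median level of all genes. Among the 9969 genes above that level, 385 were higher and 224 lower at that p. In the rank test of the kind the study used (FCROS), Galns, Asah1 and Fuca1 were past the threshold for higher values, beside 2.54% of all genes, and 0 of 45 were past that for lower values, beside 2.05% of all genes. In 0 of the 45 genes did every Dp3Yah mouse exceed every control mouse, a pattern seen in 0.522% of all genes.

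**Figure D1:**
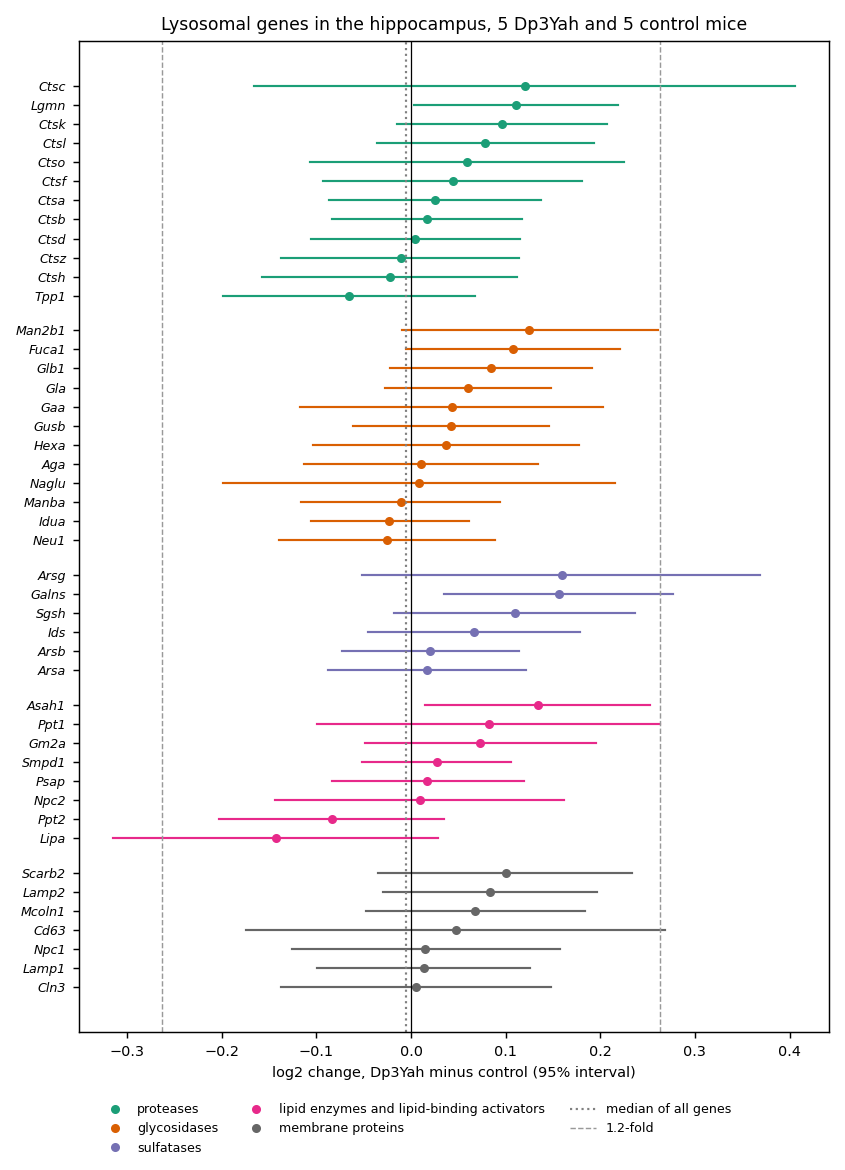
Log2 change (Dp3Yah minus control, x axis) of the 45 lysosomal genes with its 95% interval, grouped by function (n = 5 mice per group). Most points lie right of 0, and only the intervals of Galns, Asah1 and Lgmn lie wholly above it.

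The promoters of these genes are known for E-boxes that the TFEB family of transcription factors binds, a shared route of control of lysosomal genes. RefSeq start sites (GRCm38.p6) were matched for 39 of the 45 genes, with 48 windows of 250 bases before to 50 after a start. Galns, Asah1, Ctsb, Ctsh, Aga and Npc1 were not matched. The letters CACGTG, which read the same on both strands, were present in 14 of 39 genes (35.9%), against 9.5% of 15613 measured genes with a window. The longer TCACGTG, searched on both strands and always holding the shorter motif, was present in 12 of 39 (30.8%) against 5.35%. The palindrome TCACGTGA was present in 5 of 39 (12.8%) against 1.52%. A match describes letters in the window and does not show that a factor was bound.

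Of these windows 8 are shown as runs around their matches, because they belong to genes with the largest changes among those with a match (Lgmn and Sgsh) or with repeated or palindromic matches (Mcoln1, Gla, Ctsa, Cln3, Ctsd and Lamp1). Each reads 5′ to 3′ on the strand of the gene and ends at or before the annotated start, and capitals mark the matched letters.
Lgmn, chr12:102439111-102439167, minus strand: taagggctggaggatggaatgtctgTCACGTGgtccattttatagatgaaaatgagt
Sgsh, chr11:119355511-119355564, minus strand: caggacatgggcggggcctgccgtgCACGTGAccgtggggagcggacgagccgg
Mcoln1, chr8:3500422-3500505, plus strand: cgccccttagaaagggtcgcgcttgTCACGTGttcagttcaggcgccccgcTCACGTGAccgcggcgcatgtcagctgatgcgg
Gla, chrX:134601168-134601255, minus strand: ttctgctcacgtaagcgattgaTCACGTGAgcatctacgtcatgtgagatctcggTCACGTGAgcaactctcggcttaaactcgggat
Ctsa, chr2:164833735-164833772, plus strand: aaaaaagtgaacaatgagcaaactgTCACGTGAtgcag
Cln3, chr7:126583326-126583410, minus strand: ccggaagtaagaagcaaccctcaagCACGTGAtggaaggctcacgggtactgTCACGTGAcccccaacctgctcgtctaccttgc
Ctsd, chr7:142387894-142388077, minus strand: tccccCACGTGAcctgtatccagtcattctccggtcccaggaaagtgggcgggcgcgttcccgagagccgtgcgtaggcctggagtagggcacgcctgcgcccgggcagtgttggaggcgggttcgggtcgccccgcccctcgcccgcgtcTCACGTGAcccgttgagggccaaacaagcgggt
Lamp1, chr8:13159074-13159160, plus strand: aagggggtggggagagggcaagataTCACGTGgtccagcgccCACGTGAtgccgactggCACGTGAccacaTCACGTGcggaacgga

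The window of Lamp1 held 4 matches within 62 bases of the start, and those of Mcoln1, Gla, Cln3, Ctsd and Ctsa held 2 each, of which the second of Ctsa lay 5 bases after the start and is not shown. The 12 genes with TCACGTG were all higher in Dp3Yah mice, with a median log2 change of 0.034 and a range of 0.00 to 0.11. Of the 27 without it, 20 were higher, with a median of 0.044 and a range of -0.14 to 0.16. For the shorter CACGTG, 14 of 14 genes with it were higher (median 0.043), and 18 of 25 without it (median 0.042). Without control replicate 3, Ctsa (-0.008), Cln3 (-0.026), Ctsd (-0.02), Lamp1 (-0.017), Naglu (-0.067) and Arsa (-0.017) of the 12 were negative. The rest of the 12 stayed positive. Of the 27 without the motif, Npc2 (-0.043), Ctso (-0.004) and Psap (-0.004) also turned negative. With the choroid class in the fit, Ctsd (-0.014), Naglu (-0.03) and Cln3 (-0.002) of the 12 were negative. Of the 27, Npc2 (-0.007) turned negative in that fit. The differences between genes with and without a motif were not tested. Among the 12, the change was 0.11 for Lgmn and Sgsh and 0.01 or less for Lamp1, Naglu, Cln3 and Ctsd.

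**Figure D2:**
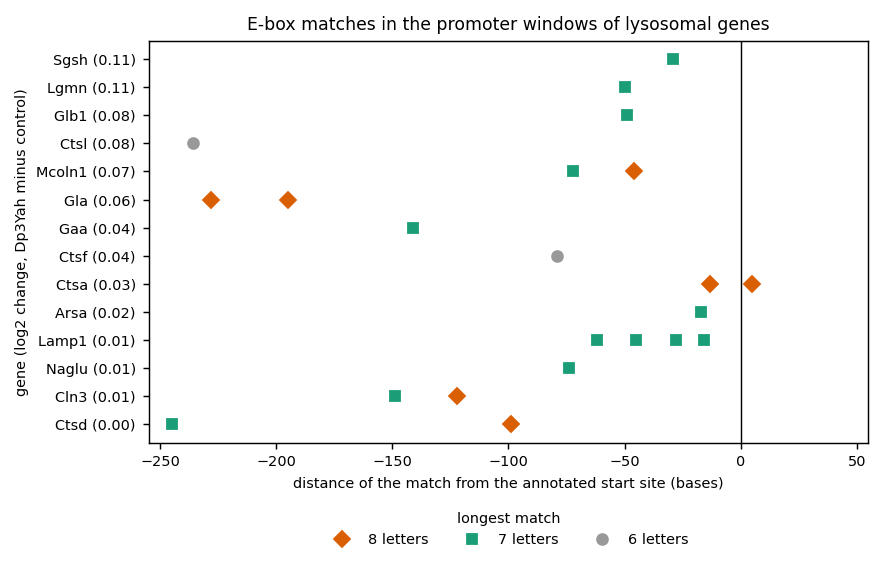
Distance of each E-box match from the annotated start site (x axis, bases) in 14 lysosomal genes, ordered by their log2 change, Dp3Yah minus control (in parentheses). Symbols give the longest motif matched; Lamp1, with 4 matches close to the start, had a change of 0.01, and Lgmn, with 1, had 0.11.

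Sulfatases remove sulfate groups from glycosaminoglycans and sulfated lipids. All 6 were higher in Dp3Yah mice, with a median log2 change of 0.088, the highest of the 5 groups, and 1 of 6 was higher at an unadjusted p under 0.05, beside 2.49% of all genes. Without control replicate 3, in which all 6 were below their means over the 10 arrays, the median was 0.069, and leaving out Dp3Yah replicate 3 gave 0.054. With the choroid class in the fit it was 0.099. Without control replicate 3 the change of Arsa was -0.017, and the other sulfatases stayed higher.

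Galns, which takes sulfate off keratan sulfate and chondroitin sulfate (chromosome 8, 122578237 to 122611701), had log2 values of 6.82, 6.92, 6.74, 6.85 and 6.94 in Dp3Yah mice, against 6.69, 6.79, 6.59, 6.81 and 6.63 in control mice. Dp3Yah replicate 3 overlapped the controls, and the other 4 Dp3Yah mice lay above all of them. The change was 0.16 (1.11-fold, SE 0.056 with 5 mice per group, limma adjusted p = 0.922). It kept an unadjusted p under 0.05 in each of 19 alternatives, with changes of 0.129 to 0.186 and adjusted p of 0.707 to 0.999. Galns and Asah1 were already known from earlier results of these data to lead the list. Within the choroid-rich arrays the difference of Galns was 0.24, and within the choroid-poor arrays 0.06.

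Sgsh, the sulfamidase of heparan sulfate (chromosome 11, 119343489 to 119355510), had 6.62, 6.69, 6.79, 6.60 and 6.62 in Dp3Yah mice, against 6.46, 6.64, 6.40, 6.64 and 6.63 in control mice. The groups overlapped, and control replicates 1 and 3 were the low values. The change was 0.11 (SE 0.059, limma adjusted p = 0.922), and 0.071 without control replicate 3. Arsg, which acts on the glucosamine units of heparan sulfate, had the largest change of all 45 genes, 0.16 (SE 0.097, limma adjusted p = 0.922). Without control replicate 3 its change was 0.078 and without Dp3Yah replicate 5 it was 0.098, and it was then not the largest. It spread widely, over 7.21 to 7.62 in Dp3Yah mice and 6.90 to 7.45 in control mice. Ids, the iduronate sulfatase, was 0.07 higher (0.029 without Dp3Yah replicate 3), and Arsb and Arsa, which act on dermatan sulfate and on the myelin lipid sulfatide, were each 0.02 higher.

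The lipid enzymes and activators went in both directions. Of these 8 genes 6 were higher, with a median log2 change of 0.022, and 1 of 8 was higher at an unadjusted p under 0.05, beside 2.49% of all genes. They held both the gene with the lowest change of all 45, Lipa, and Asah1, which had the third highest. Leaving out Dp3Yah replicate 2 or control replicate 5 gave medians of 0.047 and 0.044, and leaving out Dp3Yah replicate 5 or control replicate 3 gave 0.013 and 0.009. It was 0.018 with the choroid class in the fit.

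Asah1, acid ceramidase, which splits ceramide into sphingosine and a fatty acid (chromosome 8, 41340646 to 41397644), had 8.52, 8.72, 8.67, 8.52 and 8.76 in Dp3Yah mice, against 8.59, 8.49, 8.52, 8.48 and 8.43 in control mice. Dp3Yah replicates 2, 3 and 5 lay above every control, while replicates 1 and 4 lay among the controls. The change was 0.13 (SE 0.055, 1.1-fold, limma adjusted p = 0.922). The unadjusted p was under 0.05 in 10 of 19 alternatives.

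Lipa, lysosomal acid lipase, which cleaves cholesteryl esters and triglycerides (chromosome 19, 34492316 to 34527474), had 7.67, 7.64, 7.56, 7.65 and 7.54 in Dp3Yah mice, against 8.04, 7.52, 7.77, 7.64 and 7.82 in control mice. The Dp3Yah mice lay close together within the range of the controls. The change was -0.14 (SE 0.079, limma adjusted p = 0.922), and -0.073 without control replicate 1, the high value. With the choroid class in the fit it was -0.17 (limma adjusted p = 0.939), and the difference was -0.31 within the choroid-rich arrays and -0.04 within the choroid-poor arrays.

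Ppt2, a lysosomal thioesterase, was the other lipid gene with a negative change, -0.08 (limma adjusted p = 0.928), and 4 of 5 Dp3Yah mice lay below every control. Its difference was -0.18 within the choroid-rich arrays and 0.03 within the choroid-poor arrays. Ppt1, which removes palmitate from proteins, was 0.08 higher, and 0.034 and 0.041 higher without Dp3Yah replicate 5 or 3. Dp3Yah mice spanned 9.50 to 9.95 for Ppt1 and control mice 9.57 to 9.86. Gm2a, which lifts ganglioside GM2 from membranes for hydrolysis, was 0.07 higher. The changes of Smpd1 (acid sphingomyelinase), Psap (precursor of the saposins) and Npc2 (a cholesterol carrier) were 0.03, 0.02 and 0.01. Smpd1 had the smallest spread of the 45 genes, with an SD between mice of a group of 0.034.

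Among the proteases, 9 of 12 were higher, with a median log2 change of 0.035, and 1 of 12 was higher at an unadjusted p under 0.05, beside 2.49% of all genes. Without control replicate 3 the median was 0.001, and without Dp3Yah replicate 5 it was 0.017. It was 0.025 with the choroid class in the fit. The changes ran from -0.07 for Tpp1 to 0.12 for Ctsc.

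Lgmn, legumain, which cuts after asparagine and processes several cathepsins (chromosome 12, 102394082 to 102439728), had 10.10, 10.20, 10.24, 10.20 and 10.34 in Dp3Yah mice, against 10.08, 10.20, 10.08, 10.04 and 10.13 in control mice. Dp3Yah replicate 5 was highest, and 3 of the Dp3Yah mice exceeded every control at full precision. The change was 0.11 (SE 0.050, 1.08-fold, limma adjusted p = 0.922). It was past an unadjusted p of 0.05 in 7 of 19 alternatives.

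Ctsk, a cysteine cathepsin best known from bone-resorbing osteoclasts (chromosome 3, 95499210 to 95509387), had 5.12, 5.06, 4.91, 5.00 and 5.11 in Dp3Yah mice, against 4.82, 4.97, 4.94, 5.01 and 4.98 in control mice. Dp3Yah replicates 1, 2 and 5, the choroid-rich ones, were above every control. All these values were low, below the array medians of 6.32 to 6.41. The change was 0.10 (SE 0.051, limma adjusted p = 0.922), with 0.19 within the choroid-rich arrays and -0.02 within the choroid-poor arrays.

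Ctsc, the dipeptidyl peptidase that activates serine proteases of immune cells (chromosome 7, 88278024 to 88315861), varied most between mice of a group, with an SD of 0.253. It had 6.44, 6.73, 6.01, 6.22 and 6.33 in Dp3Yah mice, against 6.56, 6.11, 6.13, 5.95 and 6.37 in control mice. The change of 0.12 (SE 0.132, limma adjusted p = 0.951) was 0.023 without Dp3Yah replicate 2 and 0.204 without control replicate 1. The 4 highest mice, Dp3Yah replicates 1 and 2 and control replicates 1 and 5, all had choroid-rich arrays, and the difference was 0.03 within those arrays and 0.05 within the choroid-poor ones.

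The cysteine cathepsins Ctsl, Ctso, Ctsf and Ctsb were higher by 0.08, 0.06, 0.04 and 0.02. Without control replicate 3 the change of Ctso was -0.004 and that of Ctsf 0.010, and without Dp3Yah replicate 5 that of Ctsl was 0.041. By contrast, the mean of Ctsh and Ctsz was lower in Dp3Yah mice, with changes of -0.02 and -0.01. Ctsa, the serine carboxypeptidase that protects neuraminidase and beta-galactosidase, was 0.03 higher. Ctsd, the main aspartic protease of the lysosome, had a change of 0.00, with 10.45 to 10.64 in Dp3Yah mice and 10.46 to 10.67 in control mice. Tpp1, a tripeptidyl peptidase whose loss causes a neuronal ceroid lipofuscinosis, had a change of -0.07, with 8.09 to 8.35 in Dp3Yah mice and 8.20 to 8.40 in control mice (limma adjusted p = 0.945). It was -0.035 without Dp3Yah replicate 3 or control replicate 1.

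The glycosidases trim sugars from glycoproteins, glycolipids and glycogen. Here 9 of 12 were higher, with a median log2 change of 0.04, and 0 of 12 reached an unadjusted p under 0.05. Leaving out 1 mouse at a time, the median was lowest at 0.017 (control replicate 2), and it was 0.021 for control replicate 3, 0.022 for Dp3Yah replicate 2 and 0.024 for Dp3Yah replicate 1. With the choroid class in the fit it was also 0.024.

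Fuca1, which removes fucose (chromosome 4, 135920726 to 135940300), had 8.13, 8.14, 8.08, 7.89 and 8.08 in Dp3Yah mice, against 8.04, 7.93, 7.94, 7.89 and 7.97 in control mice. Every Dp3Yah mouse but replicate 4 lay above all controls, and replicate 4 was the lowest of the 10. The change was 0.11 (SE 0.052, limma adjusted p = 0.922), and 0.151 without that mouse. Man2b1, the alpha-mannosidase (chromosome 8, 85082730 to 85098739), had 8.62, 8.72, 8.57, 8.58 and 8.70 in Dp3Yah mice, against 8.66, 8.53, 8.30, 8.48 and 8.58 in control mice. Its change was 0.13 (SE 0.063, limma adjusted p = 0.922), and 0.073 without control replicate 3, the low value.

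Glb1, the beta-galactosidase of ganglioside GM1, was 0.08 higher (limma adjusted p = 0.922) and 0.050 higher without control replicate 3, and Gla, the alpha-galactosidase of globosides, 0.06. Gaa, which degrades glycogen, Gusb, the beta-glucuronidase of glycosaminoglycans, and Hexa, needed to degrade ganglioside GM2, were each 0.04 higher. Aga, which frees sugars from asparagine, and Naglu, of heparan sulfate breakdown, each had a change of 0.01. Neu1, which removes sialic acid, and the iduronidase Idua had changes of -0.03 and -0.02, and the beta-mannosidase Manba had -0.01.

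The membrane proteins were higher in 7 of 7 genes, with a median log2 change of 0.047, and 0 of 7 reached an unadjusted p under 0.05. The median ran from 0.005 with control replicate 3 left out to 0.091 with control replicate 1 left out, and it was 0.008, 0.026 and 0.085 when Dp3Yah replicate 5, control replicate 2 or Dp3Yah replicate 1 was left out. With the choroid class in the fit it was 0.017. In control replicate 3 all 7 were below their mean over the 10 arrays, and in Dp3Yah replicate 5 all 7 were above it. Without control replicate 3 the changes of Lamp1, Npc1 and Cln3 were -0.017, -0.004 and -0.026, and the other membrane proteins stayed higher.

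Scarb2, a membrane protein that carries a hydrolase to the lysosome (chromosome 5, 92441311 to 92505657), had 8.91, 9.12, 9.09, 9.15 and 9.09 in Dp3Yah mice, against 8.98, 8.99, 8.78, 9.04 and 9.08 in control mice. Every Dp3Yah mouse but replicate 1 lay above all controls, by small margins. The change was 0.10 (SE 0.062, limma adjusted p = 0.922), and 0.051 without control replicate 3. Within the choroid-rich arrays the difference was 0.01, and within the choroid-poor arrays 0.19. Lamp2, a main glycoprotein of the lysosomal membrane that also serves in chaperone-mediated autophagy (chromosome X, 38399647 to 38456460), had 10.01, 10.15, 10.12, 9.98 and 10.18 in Dp3Yah mice, against 10.11, 10.01, 9.97, 9.91 and 10.02 in control mice. Its change was 0.08 (SE 0.052, limma adjusted p = 0.922), and Dp3Yah replicates 2, 3 and 5 were above every control.

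Its relative Lamp1 was 0.01 higher, with 10.96 to 11.18 in Dp3Yah mice and 10.97 to 11.13 in control mice. Mcoln1, a calcium channel of the lysosomal membrane, was 0.07 higher, and 0.020 higher without control replicate 3. The tetraspanin Cd63 was 0.05 higher (-0.039 without Dp3Yah replicate 5), with a wide spread of 8.60 to 9.10 in Dp3Yah mice and 8.54 to 8.99 in control mice. Npc1, which exports cholesterol together with Npc2, and Cln3, whose loss causes juvenile neuronal ceroid lipofuscinosis, had changes of 0.02 and 0.01.

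**Figure D3:**
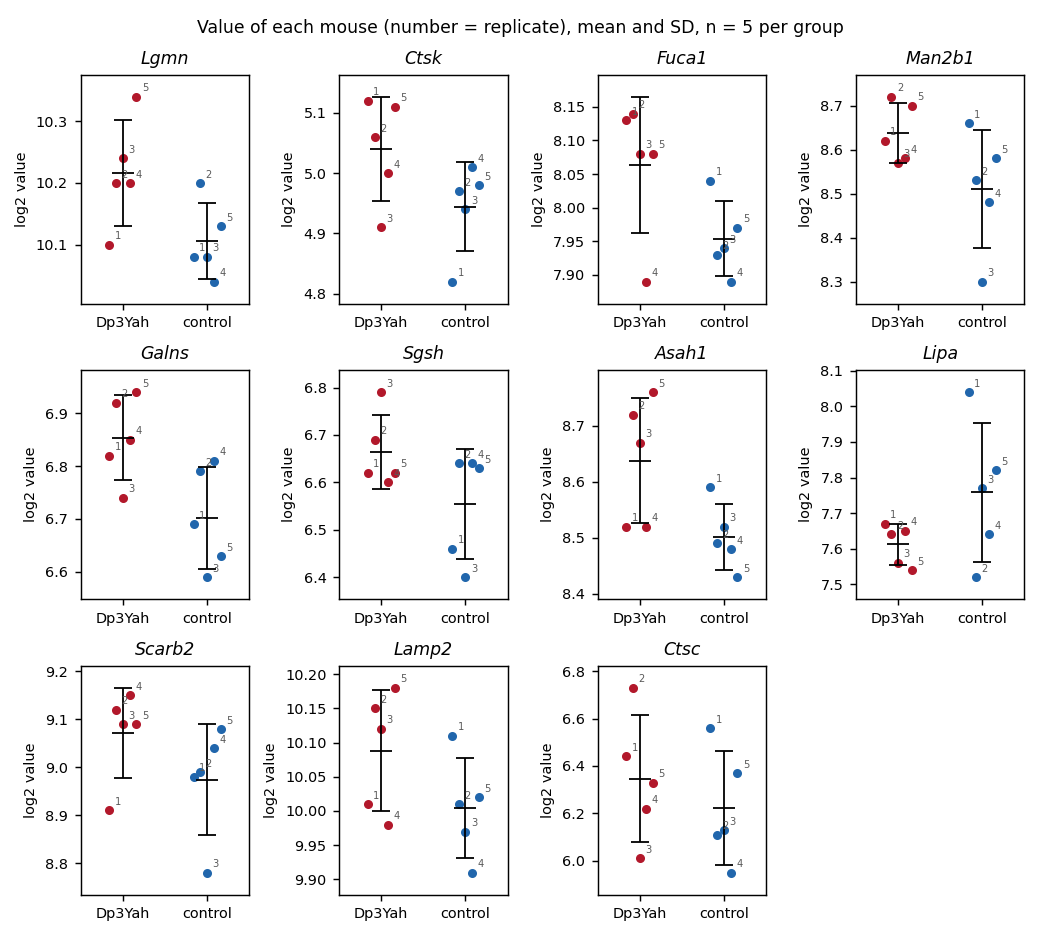
Log2 value of each mouse (y axis) for 11 lysosomal genes, Dp3Yah left of control, with mean and SD (n = 5 per group; numbers give the replicate). In none of the 11 do the groups separate fully; Galns, Fuca1 and Scarb2 have 4 of 5 Dp3Yah mice above every control.

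The changes were small beside the spread between mice. The median SD of the 45 genes between mice of a group was 0.088, close to the 0.087 of all genes. For 36 of 45 genes (80.0%) the change was under 0.1 in size, against 87.2% of all genes, and it exceeded the gene's own SD in 10 of 45, against 16.1% of all genes. The 95% interval lay inside 1.2-fold in either direction for 39 of 45 genes (86.7%), against 88.3% of all genes. Over the 45 intervals, the lowest bound was -0.32 (0.804-fold, Lipa) and the highest was 0.41 (1.32-fold, Ctsc).

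The mice differed in how the groups of enzymes stood relative to each other. The mean over the 45 genes was 8.44, 8.47, 8.45, 8.42 and 8.50 in Dp3Yah mice, against 8.48, 8.42, 8.32, 8.39 and 8.45 in control mice. Control replicate 1 was thus above 4 of the Dp3Yah mice, and control replicates 3 and 4 were the lowest of the 10. Dp3Yah replicate 5 gave the highest value of the 10 for 14 of the 45 genes and control replicate 3 the lowest for 18. Membrane proteins averaged 0.127 above their 10-array means in Dp3Yah replicate 5 and had a mean deviation of -0.154 in control replicate 3. Glycosidases were instead highest in Dp3Yah replicates 1 and 2 and control replicate 1 (0.049, 0.057 and 0.053 above), and lipid genes in control replicate 1 (0.085 above).

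**Figure D4:**
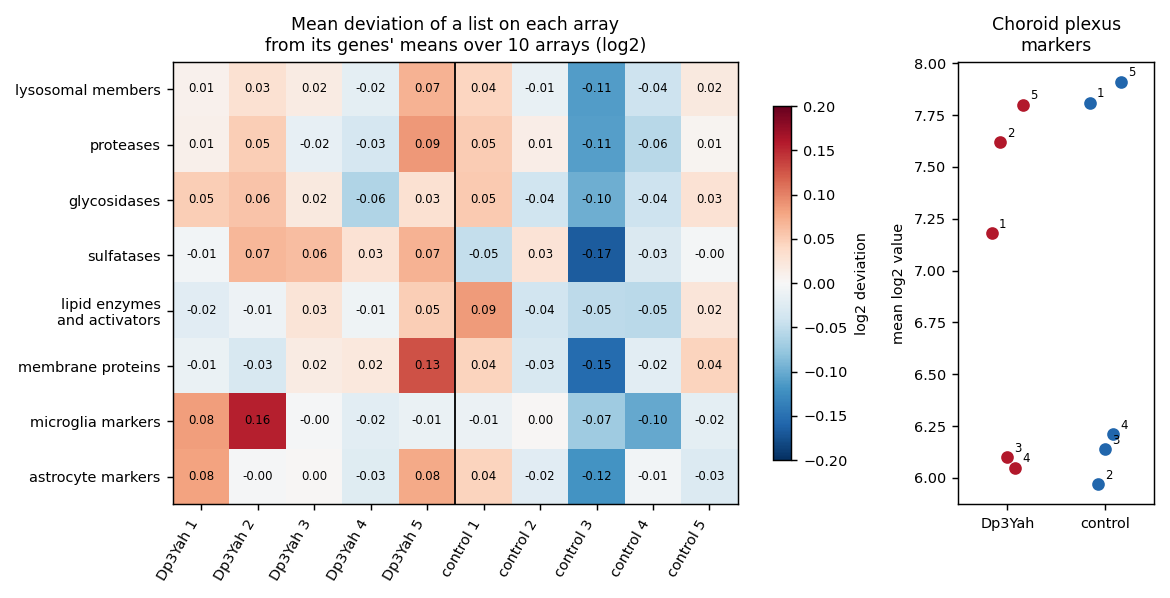
Left, mean log2 deviation of each group of genes on each array from those genes' means over the 10 arrays (colour and printed value; Dp3Yah left of control), with microglia and astrocyte markers below. Right, mean log2 value of the choroid plexus markers per mouse, which divides the arrays across both groups; control replicate 3 is low in all 5 lysosomal groups and in astrocyte markers.

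**Figure D5:**
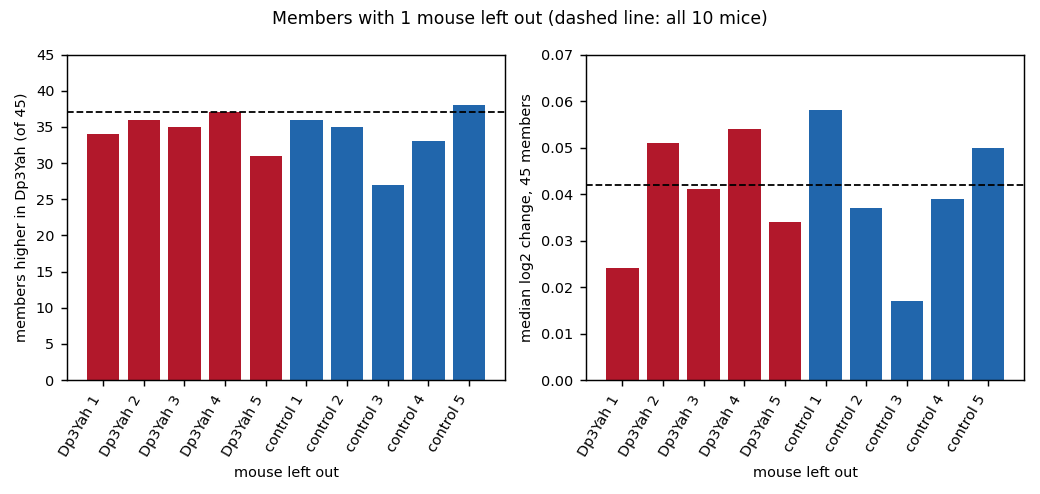
Number of the 45 lysosomal genes higher in Dp3Yah mice (left) and their median log2 change (right) with each mouse left out, bars in the colour of its group; the dashed lines give the values with all 10 mice (37 and 0.042). Leaving out control replicate 3 gives the lowest bars, 27 genes and 0.017.

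Further lysosomal genes, 31 enzymes, transporters and sorting proteins outside the 45, were higher in 21, with a median log2 change of 0.024. None passed over all genes, and 3 of 31 were higher and 0 lower at an unadjusted p under 0.05, beside 2.49% and 2.59% of all genes. Of the 31, 30 lay above the median level of all genes, where 385 of 9969 genes were higher and 224 lower at that p. All 17 V-ATPase subunits and 17 of the 18 microglia markers below lay there too. Mfsd8, a membrane protein lost in a neuronal ceroid lipofuscinosis, was 0.17 higher (SE 0.046, limma adjusted p = 0.922), with 6.91 to 7.08 in Dp3Yah mice and 6.70 to 6.85 in control mice. Slc17a5, which exports sialic acid from the lysosome, was 0.19 higher (SE 0.054, limma adjusted p = 0.922), with 8.29 to 8.52 in Dp3Yah mice and 8.12 to 8.28 in control mice. In both genes every Dp3Yah mouse exceeded every control mouse. That pattern was seen in 0.522% of all genes and in 83 of the 9969 genes above the median level.

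The subunits of the V-ATPase, the pump that acidifies the lysosome, were higher in 14 of 17, with a median of 0.032, and 1 of 17 was higher and 0 lower at an unadjusted p under 0.05, beside 2.49% and 2.59% of all genes. That subunit was Atp6v1h, 0.10 higher (limma adjusted p = 0.922), and the accessory subunit Atp6ap2 was 0.13 higher (limma adjusted p = 0.922). For the 17 subunits control replicate 3 again had the lowest mean of the 10 arrays (10.49, mean deviation -0.052). Of 12 regulators of lysosomal genes and of the nutrient sensing at the lysosome, 7 were higher, with a median of 0.021. At an unadjusted limma p under 0.05, 1 of 12 was higher and 0 lower, beside 2.49% and 2.59% of all genes. It was Rraga, a GTPase that recruits the mTOR kinase to the lysosome, 0.12 higher (limma adjusted p = 0.922). Rraga had 9.29 to 9.48 in Dp3Yah mice and 9.18 to 9.28 in control mice. Every Dp3Yah mouse thus exceeded every control mouse, as in 0.522% of all genes. Tfeb, which binds the E-box described above, had a change of -0.07 (limma adjusted p = 0.933), with 6.92 to 7.09 in Dp3Yah mice and 6.98 to 7.21 in control mice.

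Markers of other cells were set beside these genes, and none of them passed over all genes. Of 18 microglia markers 16 were higher in Dp3Yah mice, with a median of 0.08, and 4 of 18 were higher and 0 lower at an unadjusted p under 0.05, beside 2.49% and 2.59% of all genes. They included the cathepsin Ctss (0.19) and the integrin Itgam (0.15). Their mean ran from 7.76 to 7.94 in Dp3Yah mice and from 7.68 to 7.78 in control mice, and the 2 highest arrays were Dp3Yah replicates 1 and 2. Of 10 astrocyte markers 9 were higher, with a median of 0.046, and with means of 9.74 to 9.84 in Dp3Yah mice and 9.64 to 9.81 in control mice. The lowest mean was again control replicate 3. In that array the mean deviation was -0.071 for microglia and -0.182 for oligodendrocyte markers, while neuron markers had their highest mean of the 10 arrays there (10.6). The choroid plexus markers were higher in 7 of 9, with means of 6.05 to 7.80 in Dp3Yah mice and 5.97 to 7.91 in control mice. Oligodendrocyte markers were higher in 5 of 9, endothelial and mural markers in 4 of 9 and neuron markers in 7 of 12, with medians of 0.018, -0.025 and 0.009. Log2 array values have no zero, so no marker can be called absent. The part of microglia, astrocytes and choroid plexus in the lysosomal values was not tested beyond the choroid class in the fit.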

How the data were processed

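Per the labels, biotinylated cDNA from total RNA of 10 hippocampi was run on Affymetrix Mouse Gene ST arrays. The deposited values are log2 values of probe sets. RMA, limma and the mm10 build are named in the submitters' processing notes, with versions not given in the sources used here. RMA equalises array distributions, so only relative differences are seen. The table held 35556 probe sets, of which 21789 were annotated to 1 gene, 1621 to several and 12146 stayed unnamed here. Where a gene had several such probe sets, the one with the highest mean over the arrays stood for it (19939 genes); of the 45 genes only Arsb had a choice.

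Groups were compared in R 4.3.3 with limma 3.58.1 (two-sided, no covariate, Benjamini-Hochberg over all genes). The rank test was rewritten with a trim of 0.25 and a threshold of 0.025 at either end of its f value. That value places a gene's mean rank within the spread of all genes. A nearly fixed share of genes is thus past the thresholds whatever the data. Intervals are at 95%, and the number of arrays limits precision. The limma fit, but not the rank test, was run on simulated arrays. Their noise was drawn separately for each gene, and the planted changes were larger than any of the 45 genes showed. The 45 genes, their groups and the other lists were chosen with earlier results of these data known. Given in full were the 2 genes with the smallest unadjusted p in each group, Galns, Asah1 and the gene with the largest SD; of each other list, up to 2. Arsg, Ppt2 and other genes were added for their values.

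The deviations of same-numbered mice had correlations of 0.044, -0.364, 0.065, 0.199 and 0.315 over all genes. These values cannot show whether the numbers mark pairs, because differences across whole arrays also enter them. The main fit did not pair the mice, and a fit with the replicate block is among the alternatives. Some genes of the other lists were not analysed here.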

Additional observations from a re-analysis of the deposited data

Results flagged for a closer look

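In 4 of 102 groups of 5 arrays tested, a mouse lay far from the other 4 of its group by Dixon's criterion, which chance alone meets in about 1 group of 20. Fuca1 was 7.89 in Dp3Yah replicate 4, against 8.08 to 8.14 in the other Dp3Yah mice. Scarb2 was 8.91 in Dp3Yah replicate 1, against 9.09 to 9.15 in the other Dp3Yah mice. Control replicate 3 was low for Psap (12.33, against 12.43 to 12.46 in the other controls) and for Mcoln1 (9.58, against 9.79 to 9.87).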

How the results depend on the processing

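None of the 11 genes given in full changed sign in the 19 limma alternatives (18 for Ctsk and Ctsc), and none passed over all genes in any of them. Within the choroid-poor arrays alone, which gave no test, the difference of Ctsk was -0.02. Of the 45 genes, 3 were at an unadjusted p under 0.05, against 1 with array weights (Galns) and 5 with the replicate block (Lgmn, Fuca1, Man2b1, Galns and Arsg). Leaving out each mouse gave 1 to 4, Galns alone being left when Dp3Yah replicate 2 or 5 or control replicate 4 was omitted. The number of genes passing over all genes was 3, against 1 with all probe sets tested, 5 with array weights, 6 with a trended and robust variance and 1 to 4 with a mouse left out. The rank test placed 915 genes past its thresholds. Its f value is scaled to the spread of all genes, so the thresholds nearly fix that number. It is not a count of genes at a set error rate. The cause of the other differences was not tested. The number of the 45 genes higher in Dp3Yah mice ranged from 27 to 38 and their median from 0.017 to 0.058 with a mouse left out. Median centring gave 37 and 0.053, and a repeated quantile normalization 38 and 0.034. Among genes above the median level, 31 of 38 were higher. The 5 mice per group leave a median SE of 0.055 on the log2 scale.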
